A study of Mus musculus with 22 samples.

Results

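The 5 libraries described here hold RNA of donor CD8 T cells sorted from the colon (called gut) of transplant recipients on day 7, out of 22 libraries in the series. They were chosen by the cell type, tissue and treatment given in the sample characteristics: 3 came from recipients given a monoclonal antibody against interleukin 2 (anti-IL-2) and 2 from recipients given control IgG. As the labels' protocols describe it, lethally irradiated WT BALB/C mice received bone marrow and spleen cells from WT C57BL/6 donors, then repeated doses of IgG or anti-IL-2 over the first week, and donor cells were purified by flow sorting. All 5 libraries therefore share an allogeneic transplant after lethal irradiation, and none came from an untreated or untransplanted animal. The labels give a batch for each library. Batch 181212 holds 1 IgG and 1 anti-IL-2 library, batch 190306 holds 1 of each, and batch 181201 holds 1 anti-IL-2 library with no IgG partner. The labels give neither the age of the mice nor whether a library is 1 animal or a pool, and the p values below measure the spread between libraries, which may be technical.

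IL-2 is a growth factor made mainly by activated T cells. It binds a receptor of an alpha chain (Il2ra, CD25), a beta chain (Il2rb) and the common gamma chain (Il2rg), and activates the kinases JAK1 and JAK3 and the transcription factor STAT5. STAT5 raises the alpha chain itself and the feedback inhibitors Cish and Socs2, and supports division and granzyme production in CD8 cells. In the recipient's colon, donor CD8 cells are among the cells that injure tissue in graft-versus-host disease.

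The sorted identity held in each library. Cd3e and Cd8a, chains of the T cell receptor complex and of the CD8 coreceptor, stood at 885 to 1152 CPM and 1501 to 2130 CPM, where CPM is the count scaled to a common library size by the TMM method, while Cd4 stood at 0.909 to 7.21 CPM. The 12 CD8 T cell markers in the table summed to 13220 to 14840 CPM. Total counts ran from 17477932 to 23761684. The description field names the spleen for both IgG libraries, against their source name and characteristics. Itgae, the gut-retaining integrin CD103, stood at 118 and 82.6 CPM in those 2 libraries and at 1.55 to 2.49 CPM in the 3 spleen CD8 IgG libraries. The gut chemokine receptor Ccr9 likewise stood at 47.7 and 27.2 CPM against 1.88 to 5.7 CPM.

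The labelled treatment gave opposite differences in the 2 batches. Socs2 (chromosome 10, 95385362 to 95417180, minus strand, GENCODE M21 on the mouse build mm10) stood at 22.9 CPM with IgG and 2.89 CPM with anti-IL-2 in batch 181212, and at 3.56 CPM in the anti-IL-2 library of batch 181201. In batch 190306 it stood at 0.77 CPM in the library labelled IgG and 21.7 CPM in the library labelled anti-IL-2. For this gene, the library labelled IgG in batch 190306 thus lay with the anti-IL-2 libraries of the other batches, and the library labelled anti-IL-2 with the other IgG library. The CD8 cells of the spleen showed the same order, with Socs2 at 8.57 and 7.75 CPM in the IgG and 0.619 and 0.47 CPM in the anti-IL-2 libraries of batches 181201 and 181212, but 0.529 CPM in the IgG and 4.14 CPM in the anti-IL-2 library of batch 190306. In gut CD4 cells Socs2 stood at 38.1 CPM with IgG and 10.2 CPM with anti-IL-2 in batch 181212, and at 3.55 CPM in the library labelled IgG and 23.6 CPM in the library labelled anti-IL-2 in batch 190306. Whether the treatment labels of batch 190306 are exchanged was not tested, and every direction given for that batch rests on them. The labels were kept as given, the batches are shown apart, and batch and library cannot be told apart from the treatment within batch 190306.

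Each within-batch difference compares 1 library with 1 library, inside a model of all 22 libraries in which the CD8 gut anti-IL-2 library of batch 181201 has a term of its own and adds nothing to the difference. The spread used to test it came from the replicated libraries of the other populations in batches 181201 and 181212 (4 residual degrees of freedom), since no CD8 gut library has a replicate within its batch. In batch 181212, 1003 of 12841 genes tested passed an adjusted p of 0.05 (edgeR, quasi-likelihood test, Benjamini-Hochberg), which is 7.81% of them, with 525 higher (4.09%) and 478 lower (3.72%) under anti-IL-2. In batch 190306, 812 genes passed (6.32%), with 411 higher (3.2%) and 401 lower (3.12%). DESeq2 called 405 and 295 genes in the 2 batches, and fits of a single batch called 14 and 75. The typical standard error (SE) of a log2 fold change was 0.155 and 0.151.

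Between the batches, 287 genes passed in both, which is 28.6% of the genes called in batch 181212 and 35.3% of those called in batch 190306. Of these, 266 moved in opposite directions and 21 in the same direction. A direct test of the difference between the batches passed for 1537 genes (12%), with 753 more positive (5.86%) and 784 more negative (6.11%) in batch 190306. Among genes called in batch 181212, 79.7% had the opposite sign in batch 190306, against 59.9% of all genes tested. Across the 9591 genes whose log2 CPM averaged 2 or more, the correlation of the 2 differences was -0.433 (Pearson) and -0.269 (Spearman), a description across genes, which are not independent replicates.

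**Figure D1:**
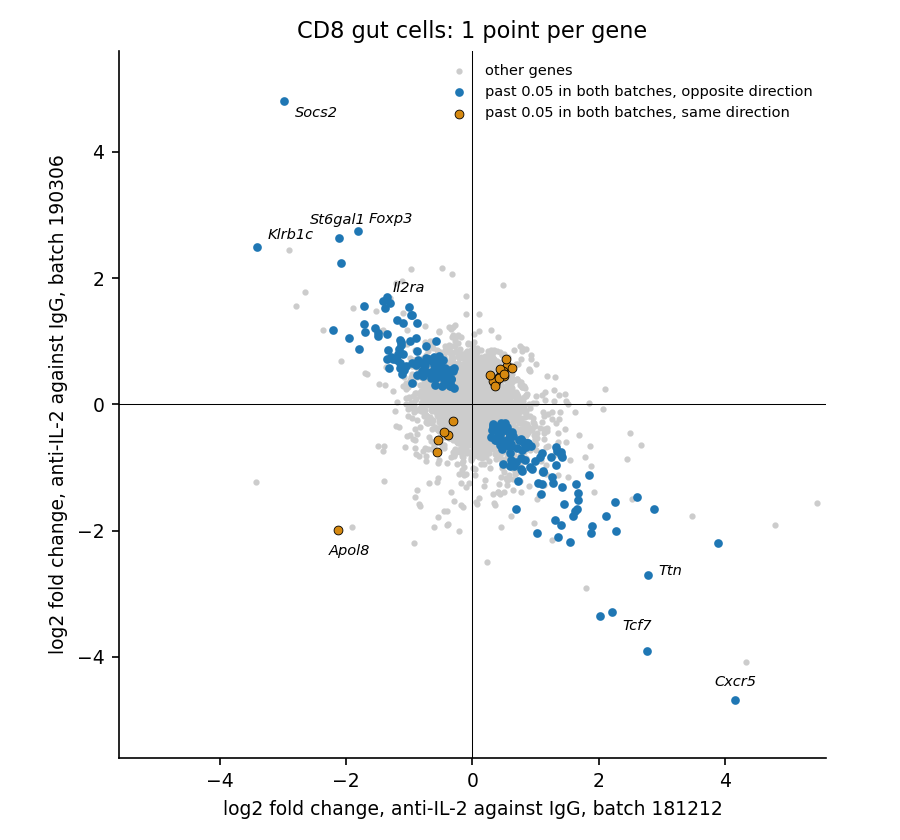
Log2 fold change of anti-IL-2 against IgG in CD8 gut cells, in batch 181212 (x axis) and batch 190306 (y axis), with 1 point for each of 9591 genes averaging a log2 CPM of 2 or more (1 gene lies outside the axes). Genes past an adjusted p of 0.05 in both batches lie mostly in the upper left and lower right (222 genes, opposite direction, blue), and 21 lie in the same direction (orange).

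The IL-2 receptor alpha chain and the STAT5 feedback genes fell with anti-IL-2 in batch 181212 and rose in batch 190306. Il2ra (chromosome 2, 11642807 to 11693193) stood at 178 CPM with IgG and 66.5 CPM with anti-IL-2 in batch 181212, at 84.8 CPM in the anti-IL-2 library of batch 181201, and at 99.2 CPM with IgG and 309 CPM with anti-IL-2 in batch 190306. Its log2 fold change was -1.42 ± 0.11 (SE; adjusted p = 5.16e-05) in batch 181212 and 1.64 ± 0.11 (adjusted p = 1.98e-05) in batch 190306. Socs2 changed by -2.98 ± 0.25 (adjusted p = 6.65e-05) and 4.81 ± 0.30 (adjusted p = 1.43e-05). Cish (chromosome 9, 107296026 to 107302784), which blocks STAT5 docking at the receptor, moved less. It stood at 174, 117 and 116 CPM in the IgG 181212, anti-IL-2 181212 and anti-IL-2 181201 libraries and at 146 CPM with IgG and 292 CPM with anti-IL-2 in batch 190306. Its fold change was -0.57 ± 0.14 (adjusted p = 0.0298) and 1.0 ± 0.13 (adjusted p = 0.0031). For these 3 genes the IgG and anti-IL-2 groups overlapped over all batches, and the 2 anti-IL-2 libraries of batches 181201 and 181212 lay close to each other.

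The other receptor and signalling parts changed little or not past the test. Il2rb, shared with the IL-15 receptor, stood at 1370 and 1196 CPM with IgG and anti-IL-2 in batch 181212 (log2 fold change -0.20 ± 0.11, adjusted p = 0.309) and rose by 0.41 ± 0.11 in batch 190306 (adjusted p = 0.0482). Il2rg, Stat5a and Stat5b passed in neither batch, with -0.01 ± 0.13, 0.11 ± 0.09 and -0.08 ± 0.07 in batch 181212 and -0.18 ± 0.13, -0.00 ± 0.09 and 0.00 ± 0.07 in batch 190306. Jak3 rose by 0.32 ± 0.07 in batch 181212 (adjusted p = 0.0193), and its log2 fold change in batch 190306 was -0.31 ± 0.07 (adjusted p = 0.0276). Il2 itself was close to undetected, with 1, 8 and 8 reads in the IgG 181212, anti-IL-2 181212 and anti-IL-2 181201 libraries and 9 and 0 reads with IgG and anti-IL-2 in batch 190306. Of the 15 genes listed for the receptor and its signalling, 4 rose and 1 fell in batch 181212, and 2 rose and 3 fell in batch 190306. This is 33.3% called in each, against 7.81% and 6.32% of all genes.

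Among 48 tested genes listed as IL-2 and STAT5 targets, 6 rose and 7 fell in batch 181212 (27.1% called, against 7.81% of all genes), and 8 rose and 5 fell in batch 190306 (27.1%, against 6.32%). Their median log2 fold changes, -0.04 and 0.03, lay near the medians of all genes tested, so the list did not move as a block. The receptor chains for IL-18, Il18r1 and Il18rap, fell in batch 181212 and did not pass in batch 190306. Il18r1 stood at 1415 CPM with IgG against 724 CPM with anti-IL-2 and 705 CPM in batch 181201 (-0.97 ± 0.06, adjusted p = 1.13e-05), but at 744 and 755 CPM in batch 190306 (0.02 ± 0.06). The difference between batches passed for Il18r1 (adjusted p = 5.07e-05). The transcription factor Ahr and the costimulatory receptor Tnfrsf4 (OX40) rose in batch 190306, by 0.78 ± 0.11 and 0.68 ± 0.11, and gave -0.19 ± 0.12 and 0.05 ± 0.12 in batch 181212. Myc, a driver of growth, went against the receptor chain: it rose by 0.70 ± 0.11 in batch 181212, and its fold change in batch 190306 was -0.69 ± 0.11. The survival gene Bcl2 and the inhibitors Socs1 and Socs3 did not pass in either batch.

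**Figure D2:**
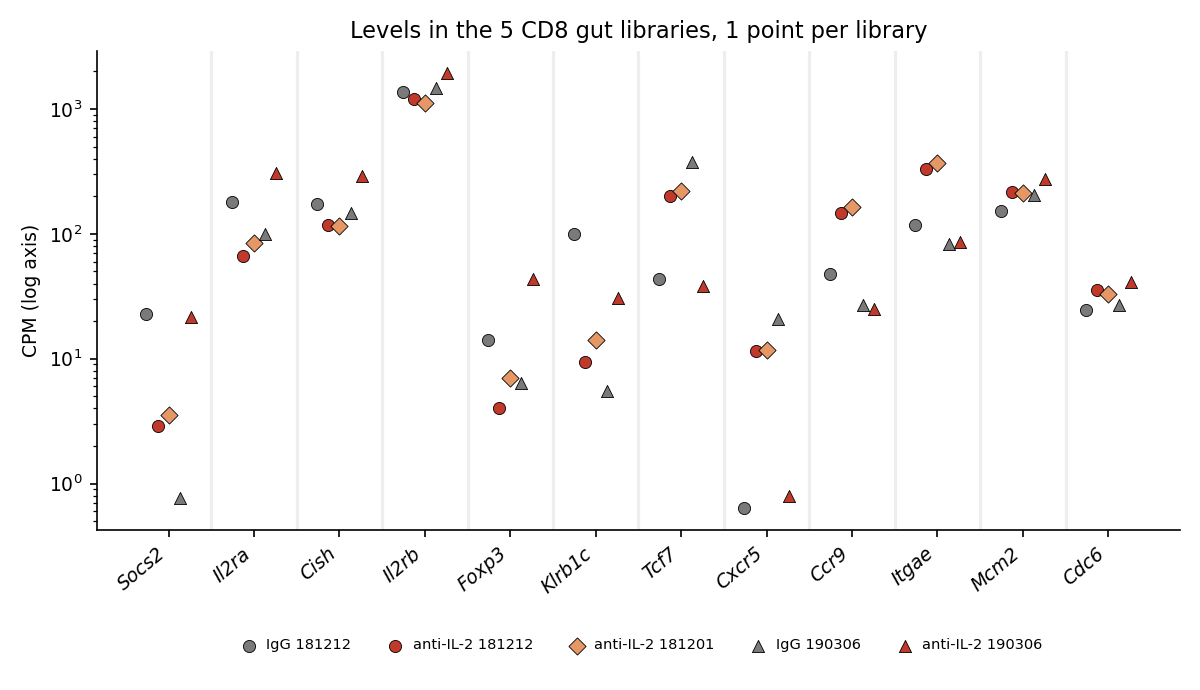
CPM on a log axis for 12 named genes in the 5 CD8 gut libraries, with 1 point per library (grey, IgG; red and orange, anti-IL-2; circles and diamonds, batches 181212 and 181201; triangles, batch 190306). Socs2, Il2ra, Foxp3 and Klrb1c are lower with anti-IL-2 in batch 181212 and higher in batch 190306, Tcf7 and Cxcr5 show the reverse, and Mcm2 and Cdc6 are higher with anti-IL-2 in both.

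Foxp3, the factor that defines regulatory T cells, followed Il2ra at low levels. It stood at 14.1, 4.02 and 6.96 CPM in the IgG 181212, anti-IL-2 181212 and anti-IL-2 181201 libraries, and at 6.44 CPM with IgG and 43.2 CPM with anti-IL-2 in batch 190306. The change was -1.81 ± 0.39 (adjusted p = 0.0352) and 2.75 ± 0.32 (adjusted p = 0.0053). The 5 CD4 T cell markers, Foxp3 among them, summed to 95.6 to 168 CPM in the 5 libraries and to as much as 3168 CPM in other libraries of the series, and Cd4 in CD8 gut cells did not pass in either batch. Of the 15 genes listed for regulatory T cells, 2 fell in batch 181212 (13.3% called, against 7.81% of all genes), and 4 rose and 1 fell in batch 190306 (33.3%, against 6.32%).

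Among killing and natural killer receptor genes, Klrb1c (NK1.1) fell from 100 CPM to 9.45 CPM in batch 181212 and stood at 14.2 CPM in batch 181201, while in batch 190306 it stood at 5.5 CPM with IgG and 30.9 CPM with anti-IL-2. This is a log2 fold change of -3.41 ± 0.20 (adjusted p = 1.13e-05) in batch 181212, and 2.49 ± 0.22 (adjusted p = 0.000154) in batch 190306. Klrd1 (CD94) and Klrk1 (NKG2D) fell by 0.46 ± 0.09 and 0.63 ± 0.14 in batch 181212 and did not pass in batch 190306. Of 14 natural killer receptor genes tested, 3 fell and 0 rose in batch 181212 (21.4% called, against 7.81% of all genes). The list did not fall as a block there: 8 of the 14 had a positive fold change, and the median was 0.07. In batch 190306, 1 rose (7.14%, near the 6.32% of all genes). Of 20 tested granule and killing genes, 2 rose and 2 fell in each batch (20% called, against 7.81% and 6.32% of all genes). Gzmb, the main granzyme of killer T cells, stood at 3127, 2729 and 3274 CPM in the IgG 181212, anti-IL-2 181212 and anti-IL-2 181201 libraries (adjusted p = 0.462 in batch 181212) and rose from 3248 to 5935 CPM in batch 190306 (0.87 ± 0.14, adjusted p = 0.0129). Gzma rose there from 1530 to 5019 CPM (1.71 ± 0.28, adjusted p = 0.0382) and gave -0.09 ± 0.28 in batch 181212. Perforin (Prf1) and interferon gamma (Ifng) passed in neither batch.

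Genes of naive and memory-like T cells mostly changed sides between the batches, but their summed level did not. The sum was 2598 and 3101 CPM with IgG in batches 181212 and 190306. With anti-IL-2 it was 2111, 2197 and 2328 CPM in batches 181212, 181201 and 190306, lower in both batches that hold IgG. Of 18 tested, 7 rose and 3 fell in batch 181212, and 1 rose and 9 fell in batch 190306, with medians of 0.40 and -0.92. This is 55.6% called in each, against 7.81% and 6.32% of all genes. Tcf7, which encodes TCF1, a factor of naive and memory-like cells, stood at 43.3 CPM with IgG, 200 CPM with anti-IL-2 and 220 CPM in batch 181201, and at 375 CPM with IgG against 38.5 CPM with anti-IL-2 in batch 190306. Its fold change was 2.21 ± 0.20 (adjusted p = 0.00167) and -3.28 ± 0.21 (adjusted p = 0.000432). Ccr7, a lymph node homing receptor, and Bach2, a repressor of effector genes, rose by 2.51 ± 0.50 and 1.03 ± 0.20 in batch 181212, with -2.26 ± 0.32 and -2.04 ± 0.19 in batch 190306. Not all members moved with Tcf7: Lef1, a relative of Tcf7, fell from 159 to 86.4 CPM in batch 181212 (-0.88 ± 0.09) and rose from 122 to 169 CPM in batch 190306 (0.47 ± 0.09), and S1pr1, the receptor for exit from tissue, fell by 1.06 on the log2 scale in batch 181212 and gave 0.24 ± 0.08 in batch 190306.

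Genes known from follicular helper T cells also changed sides. Of 16 tested, 6 rose and 1 fell in batch 181212, and none rose and 7 fell in batch 190306. This is 43.8% called in each, against 7.81% and 6.32% of all genes. Cxcr5, the follicle-homing receptor, stood at 0.641 CPM with IgG and 11.6 CPM with anti-IL-2 in batch 181212, at 11.8 CPM in batch 181201, and at 20.8 CPM with IgG and 0.798 CPM with anti-IL-2 in batch 190306 (4.16 ± 0.69 and -4.69 ± 0.57). Tox2 and its relative Tox, a nuclear factor outside the list, rose by 2.27 ± 0.33 and 1.45 ± 0.25 in batch 181212, with -2.0 ± 0.32 and -1.58 ± 0.25 in batch 190306. Bcl6, the defining repressor of follicular helper cells, rose from 13.1 to 26.2 CPM in batch 181212 (adjusted p = 0.00545), stood at 27.5 CPM in batch 181201, and gave -0.56 ± 0.15 in batch 190306 (adjusted p = 0.051). The cytokine gene Il21 rose from 1.71 to 9.85 CPM in batch 181212 (adjusted p = 0.0057). Cxcr5 and Pou2af1 are also expressed by B cells: Pou2af1 stood at 1.44, 21.4 and 4.98 CPM in the IgG 181212, anti-IL-2 181212 and anti-IL-2 181201 libraries and at 8.8 and 1.91 CPM with IgG and anti-IL-2 in batch 190306. The 9 B and plasma cell markers in the table summed to 27.6, 489, 45.1, 130 and 50.4 CPM in the same order, mostly from Jchain, with 1 or 2 of them at 0 in each library, and their part in these results was not tested.

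Interferon response genes rose with anti-IL-2 in batch 181212 and fell in batch 190306. Of 43 tested, 11 rose and 1 fell in batch 181212 (median 0.43), and none rose and 12 fell in batch 190306 (median -0.41). This is 27.9% called in each, against 7.81% and 6.32% of all genes. Ifi27l2a stood at 19.8, 71.2 and 77.8 CPM in the IgG 181212, anti-IL-2 181212 and anti-IL-2 181201 libraries, and at 99.1 CPM with IgG and 45.8 CPM with anti-IL-2 in batch 190306. Its fold change was 1.85 ± 0.11 (adjusted p = 1.13e-05) and -1.11 ± 0.10 (adjusted p = 0.000154). The antiviral enzyme gene Oas1a moved by 1.33 ± 0.18 and -0.68 ± 0.17, past the test in both batches. Irf7 and Irf9, which drive the response, gave 0.06 ± 0.10 and 0.16 ± 0.10 in batch 181212 without passing, and fell in batch 190306, with -0.45 ± 0.10 and -0.41 ± 0.10.

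Some genes of cell death and of the TNF family also differed between the batches. Of 22 tested genes listed for the BCL2 family and death receptors, 2 rose and 1 fell in batch 181212 (13.6% called, against 7.81% of all genes). In batch 190306, 2 of them fell (9.09%, against 6.32%). The test of the difference between batches passed for 13.6% of that list, near the 12% of all genes. The death ligand Tnfsf10 (TRAIL) and the death receptor Fas rose by 0.76 ± 0.09 and 0.79 ± 0.16 in batch 181212, with -0.56 ± 0.09 and -1.05 ± 0.16 in batch 190306. The death activator Bbc3 (PUMA) fell from 28.4 to 10.9 CPM in batch 181212 (-1.38 ± 0.17, adjusted p = 0.000897) and stood at 10.1 CPM in batch 181201, against 10.6 CPM with IgG and 16 CPM with anti-IL-2 in batch 190306 (adjusted p = 0.0744). The stress-induced mTOR inhibitor Ddit4 moved by -0.74 ± 0.11 and 0.93 ± 0.11. Of the 16 TNF receptor family genes tested, 4 rose and 1 fell in batch 181212 (31.2% called, against 7.81% of all genes). In batch 190306, 2 rose and 6 fell (50%, against 6.32%).

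**Figure D3:**
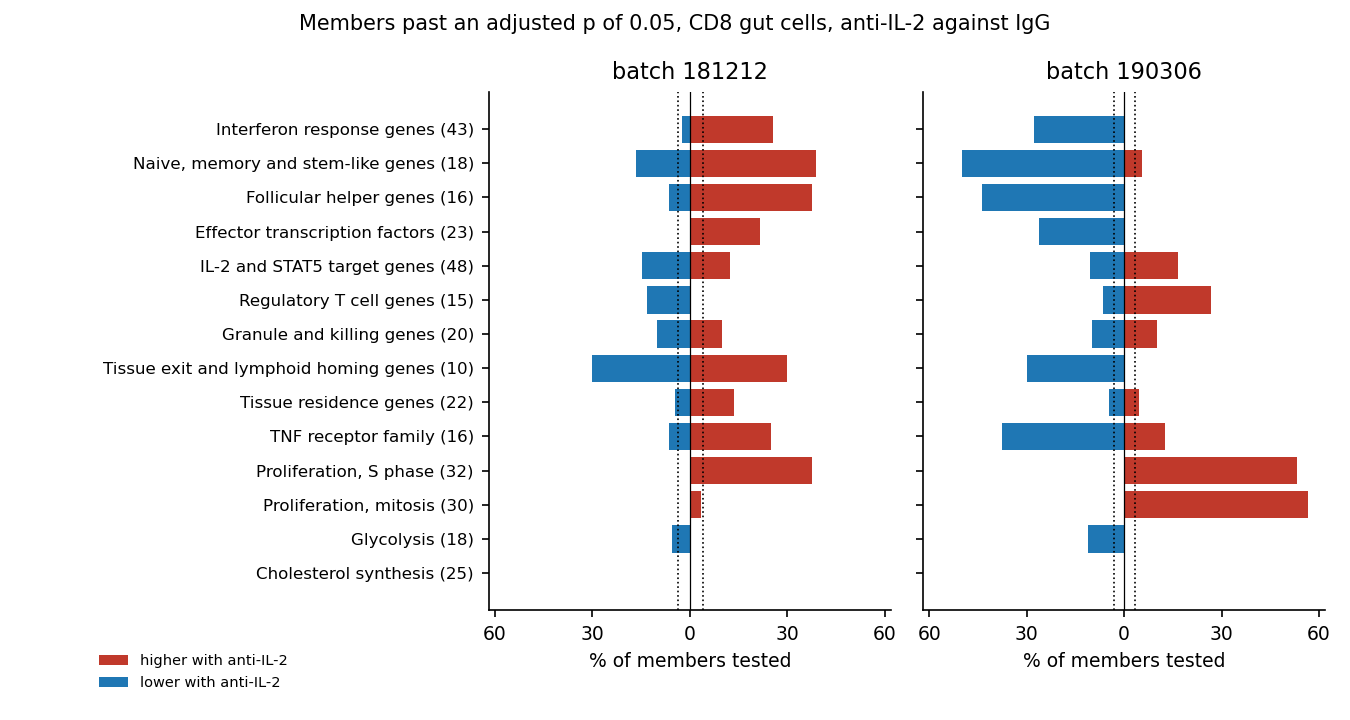
Share of the tested members of 14 gene lists (number tested in brackets) past an adjusted p of 0.05 in batch 181212 (left) and batch 190306 (right), with bars to the right for genes higher with anti-IL-2 and to the left for genes lower. Dotted lines mark the share of all genes tested in each direction. Interferon, naive and memory-like and follicular helper genes change sides between the batches, while all S phase genes called lie on the higher side in both.

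The gut entry receptor Ccr9 rose with anti-IL-2 in batch 181212 and did not pass in batch 190306. Ccr9 stood at 47.7 CPM with IgG against 147 CPM with anti-IL-2 in batch 181212 (1.62 ± 0.19, adjusted p = 0.00264) and 163 CPM in batch 181201, but at 27.2 and 25.1 CPM in batch 190306 (-0.12 ± 0.21). Itgae showed the same order, at 118, 331 and 370 CPM against 82.6 and 85.3 CPM, without passing (adjusted p = 0.0627 and 0.97). The values of these 2 genes therefore separated batch 190306 from the anti-IL-2 libraries of the earlier batches and did not follow Socs2 or Tcf7. Of 22 genes listed for tissue residence, 3 rose and 1 fell in batch 181212 (18.2% called, against 7.81% of all genes), and 1 rose and 1 fell in batch 190306 (9.09%, near the 6.32% of all genes). The residence markers Itga1 and Cd69 passed in neither, though their levels differed between libraries. Itga1 stood at 330 CPM with IgG and 214 CPM with anti-IL-2 in batch 181212, and at 196 and 265 CPM in batch 190306. Cd69 stood at 513 and 390 CPM in batch 181212 and at 358 and 110 CPM in batch 190306, in the same order.

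Markers of several cell types outside the T cell lineage were highest in the same 2 libraries. The 13 fibroblast and muscle markers summed to 23.6 and 24.3 CPM in the anti-IL-2 libraries of batches 181212 and 181201 and to 1.38 to 4.84 CPM in the other 3. The 9 fat cell markers summed to 39.1 and 25.9 CPM against 0 to 1.87 CPM, and the 16 exocrine pancreas markers to 52.6 and 110 CPM against 8.39 to 13.4 CPM. The 18 epithelial markers summed to 92.6, 221 and 95.9 CPM in the anti-IL-2 libraries of batches 181212, 181201 and 190306. In the IgG libraries of batches 181212 and 190306 they summed to 52.1 and 48.3 CPM, so the treatment groups did not overlap. Adipoq and Cidec, which define fat cells, were at 0 in both libraries of batch 190306. Members of these lists past the test in batch 181212 numbered 5 of 10 tested for fibroblasts and muscle, 5 of 6 for fat cells, 5 of 14 for pancreas and 6 of 15 for epithelium, all higher. These are 50%, 83.3%, 35.7% and 40%, against 4.09% of all genes that rose. In the IgG library of that batch, 3 of the 9 fat cell and 12 of the 16 pancreas markers were at 0, so these calls include genes near the floor. Their part in the differences of Ccr9, Itgae and the other genes of batch 181212 was not tested. Fewer cells of a type and less RNA per cell cannot be told apart in such bulk samples.

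**Figure D4:**
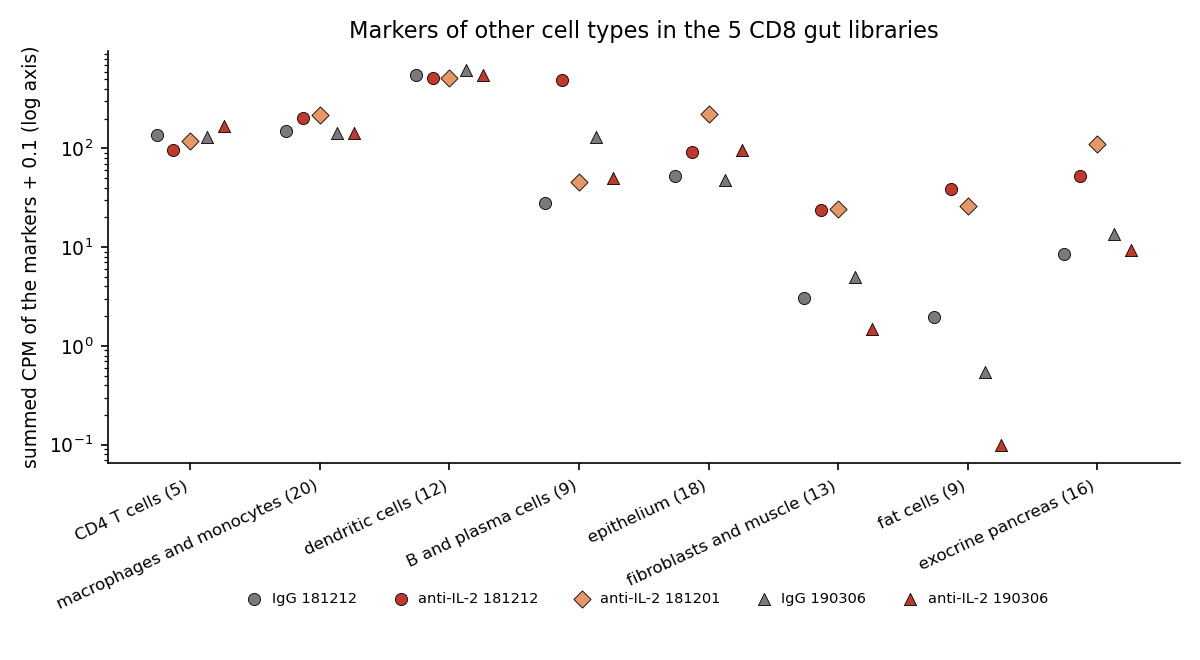
Summed CPM of marker genes of 8 other cell types (number of markers in the table in brackets), plus 0.1 so that 0 can be shown on the log axis, in the 5 CD8 gut libraries. Fibroblast, fat and pancreas markers are highest in the anti-IL-2 libraries of batches 181212 and 181201, and B and plasma cell markers in the anti-IL-2 library of batch 181212.

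DNA replication genes rose with anti-IL-2 in both batches, with no tested member of the S phase list called lower, under the labels as given. Of 32 S phase genes tested, 12 rose and none fell in batch 181212 (37.5%, against 4.09% of all genes that rose), and 17 rose and none fell in batch 190306 (53.1%, against 3.2%). The median log2 fold change of the 32 was 0.36 and 0.47. Their summed level was 2670 and 2874 CPM in the IgG libraries of batches 181212 and 190306, and 3321, 3284 and 3736 CPM in the anti-IL-2 libraries of batches 181212, 181201 and 190306, so the groups did not overlap. With the 2 labels of batch 190306 exchanged, the 17 genes would be lower in that batch, the 2 batches would oppose each other, and the summed levels would overlap. The 26 immediate early genes, which respond to activation and to cell handling, also separated the groups, with sums of 10180 and 9699 CPM in the IgG libraries of batches 181212 and 190306 and 7425, 5182 and 4304 CPM in the anti-IL-2 libraries of batches 181212, 181201 and 190306. Of these 26, 2 rose and 1 fell in batch 181212 (11.5% called, against 7.81% of all genes). In batch 190306, 2 fell (7.69%, against 6.32%), so both shares lay near those of all genes. Their part in the S phase result was not tested. Other sums separated the groups too, among them those of the naive and memory-like genes and epithelial markers above. Regulatory T cell genes summed to 1089 and 1202 CPM with IgG against 1309, 1309 and 1315 CPM with anti-IL-2. Sums of other lists, such as granule and killing genes, overlapped. Such a separation was thus not particular to S phase genes. The S phase changes were small beside those of Socs2 or Tcf7, and members varied: Pcna, the replication clamp, gave -0.11 ± 0.10 and 0.26 ± 0.10 and passed in neither batch, and the licensing factor Cdt1 gave -0.26 ± 0.13 in batch 181212 and rose by 0.52 ± 0.12 in batch 190306.

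The 15 genes that rose in both batches were Ung, Cdc6, Mybl2, Lig1, Uhrf1, Fignl1, Mcm2, Rrm2, Mcm3, Mcm5, Dut, Lrrc58, Dnmt1, Top2a and Rrm1. With the labels of batch 190306 exchanged, these and the 6 genes lower in both would be among the genes of opposite direction, and the 266 of opposite direction would share a direction. Mcm2, Mcm3 and Mcm5 encode parts of the helicase that opens DNA at replication origins, and Cdc6 loads that helicase. Mcm2 (chromosome 6, 88883474 to 88898780) stood at 153 and 203 CPM with IgG in batches 181212 and 190306 and at 217, 213 and 277 CPM with anti-IL-2 in batches 181212, 181201 and 190306, and rose by 0.50 ± 0.09 (adjusted p = 0.00605) and 0.45 ± 0.09 (adjusted p = 0.0129). Cdc6 stood at 24.4 and 27.2 CPM with IgG and at 35.8, 33.1 and 41.4 CPM with anti-IL-2, and rose by 0.55 ± 0.13 (adjusted p = 0.0224) and 0.61 ± 0.13 (adjusted p = 0.0154). In both genes every anti-IL-2 library lay above every IgG library. DNA ligase 1 (Lig1), which seals replicated strands, rose by 0.49 ± 0.08 and 0.53 ± 0.08, and the ribonucleotide reductase genes Rrm1 and Rrm2, which supply deoxynucleotides, by 0.28 ± 0.07 and 0.43 ± 0.10 in batch 181212 and by 0.47 ± 0.07 and 0.56 ± 0.10 in batch 190306. Uhrf1 and Dnmt1, which copy DNA methylation after replication, rose by 0.51 ± 0.11 and 0.35 ± 0.08 in batch 181212 and by 0.47 ± 0.11 and 0.32 ± 0.08 in batch 190306.

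The 6 genes that fell in both batches were Apol8, Pink1, Ccnl1, Tcp11l2, Plxnc1 and Fam65b. Apol8, an apolipoprotein L gene, stood at 13.9 and 8.97 CPM with IgG in batches 181212 and 190306 and at 3.17, 4.6 and 2.26 CPM with anti-IL-2 in batches 181212, 181201 and 190306, and changed by -2.14 ± 0.45 (adjusted p = 0.0189) and -1.98 ± 0.47 (adjusted p = 0.035). Pink1, a kinase that marks damaged mitochondria for removal, changed by -0.56 ± 0.12 and -0.75 ± 0.12. With DESeq2 in place of edgeR, 7 genes in place of 21 were called in both batches in the same direction, with 5 and 4 of the 32 S phase genes called higher. In fits of a single batch (8 libraries, 2 residual degrees of freedom) none of the 32 was called in either batch.

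**Figure D5:**
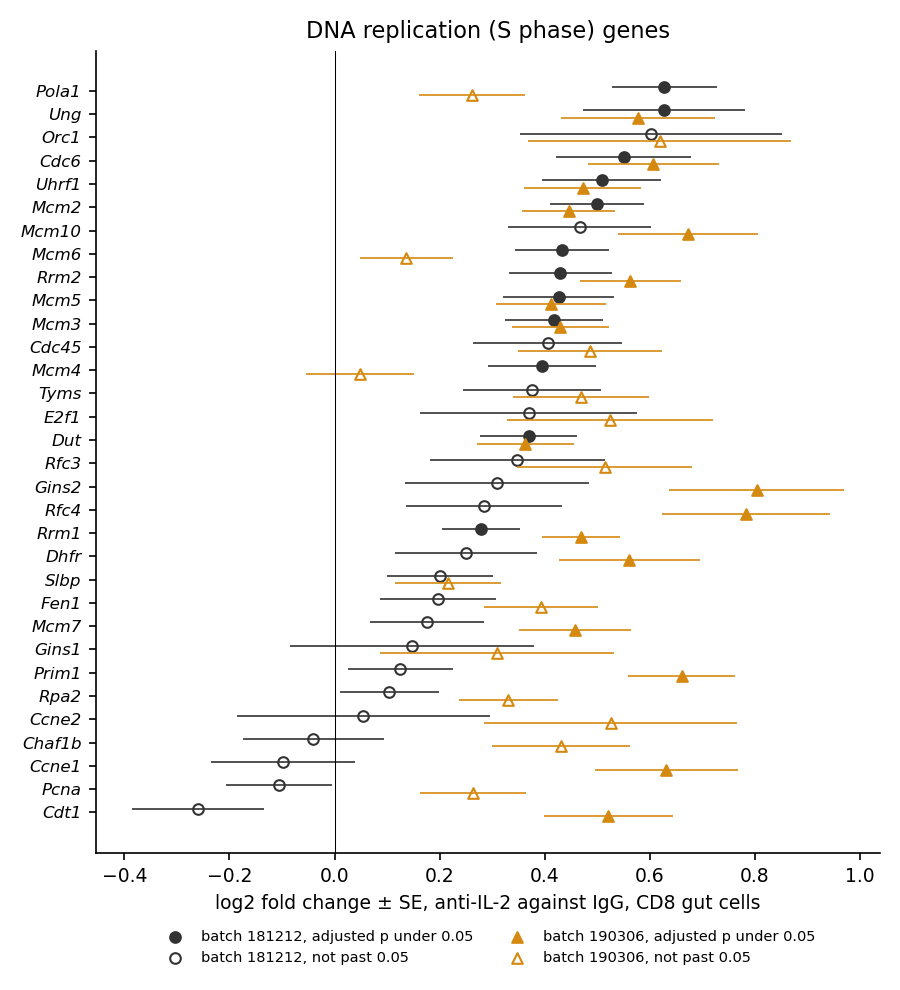
Log2 fold change ± SE of anti-IL-2 against IgG in CD8 gut cells for the 32 S phase genes, in batch 181212 (dark circles) and batch 190306 (orange triangles), with filled symbols for an adjusted p under 0.05. All filled symbols lie to the right of 0, and 4 genes lie to the left of 0 in batch 181212 without passing.

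Promoters of the genes that rose in both batches are shown because E2F, the factor family that switches on replication genes, binds a short motif close to many of their starts. The 250 bases before each RefSeq start (GRCm38.p6) were searched on both strands for TTTCCCGC, TTTCGCGC, TTTGCCGC and TTTGGCGC, which can overlap each other. A match was found for 4 of the 15 genes (26.7%: Cdc6, Mcm5, Uhrf1 and Dnmt1), for 8 of 27 S phase genes with a promoter in the table (29.6%), and for 3.93% of the 9912 tested genes with a promoter. The GENCODE M21 gene of Cdc6 begins at 98907801, so the window of Cdc6 lies inside that gene and is upstream of the RefSeq start only. The windows of Cdc6 (chr11:98907901-98908150, plus strand, match 131 bases before the start) and Mcm5 (chr8:75109259-75109508, plus strand, overlapping matches 146 and 142 bases before the start) are printed 5′ to 3′ with the matches in capitals.
Cdc6: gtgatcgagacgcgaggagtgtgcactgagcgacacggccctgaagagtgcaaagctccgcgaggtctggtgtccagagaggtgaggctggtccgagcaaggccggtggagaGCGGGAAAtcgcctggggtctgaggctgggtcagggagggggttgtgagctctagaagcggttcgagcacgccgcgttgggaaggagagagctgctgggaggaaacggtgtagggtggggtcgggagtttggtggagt
Mcm5: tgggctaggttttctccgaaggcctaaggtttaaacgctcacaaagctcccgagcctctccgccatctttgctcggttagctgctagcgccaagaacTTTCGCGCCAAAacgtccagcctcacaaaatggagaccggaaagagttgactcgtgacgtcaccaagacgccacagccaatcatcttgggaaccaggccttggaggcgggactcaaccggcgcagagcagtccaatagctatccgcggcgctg
A match is a description of these letters and does not show that a factor binds there. The STAT motif TTCNNNGAA was found for 7.28% of all tested genes and for 6 of the 34 IL-2 and STAT5 targets with a promoter (17.6%). It was also found for 2 of the 15 genes (13.3%), Lig1 and Mcm5, and the Mcm5 match, TTCTCCGAA, lies 231 bases before the start and is not in capitals in the window printed. The windows of Il2ra and Cish held none.

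Mitosis genes rose in batch 190306, and few passed in batch 181212. Of 30 tested, 17 rose in batch 190306 (56.7%, against 3.2% of all genes), with a median log2 fold change of 0.44. In batch 181212, 1 rose, Top2a (3.33%, near the 4.09% of all genes), with a median of 0.02, and none fell in either batch. The mitotic kinase gene Aurkb rose by 0.66 ± 0.11 in batch 190306 and gave 0.09 ± 0.11 in batch 181212. The proliferation marker Mki67 stood at 1160, 1211 and 1071 CPM in the IgG 181212, anti-IL-2 181212 and anti-IL-2 181201 libraries (adjusted p = 0.782 in batch 181212) and rose from 944 to 1244 CPM in batch 190306 (0.40 ± 0.10, adjusted p = 0.0431). The test of the difference between batches passed for 12 of the 30 (40%, against 12% of all genes).

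For metabolic and stress genes the shares called are read against 7.81% of all genes in batch 181212 and 6.32% in batch 190306. None of 25 cholesterol synthesis genes and none of 14 heat shock genes passed in either batch. Of 18 glycolysis genes, 1 fell in batch 181212 (5.56%) and 2 fell in batch 190306 (11.1%), and of 32 respiratory chain and ATP synthase genes 1 rose in each (3.12%). The chaperone gene Hspa1a stood at 89.1 CPM in the anti-IL-2 library of batch 181212 and at 0.767 to 7.54 CPM in the other 4 libraries, without passing (adjusted p = 0.117). Hspa1a was also high with anti-IL-2 in the other populations of batch 181212. It stood there at 70.2, 28.3 and 114 CPM in spleen CD4, spleen CD8 and gut CD4 cells. With IgG it stood at 2.37, 2.77 and 1.33 CPM in the same order.

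With 1 treatment difference fitted to all batches, 3 anti-IL-2 against 2 IgG libraries and batch as a term, no gene passed in edgeR (0%, 12 residual degrees of freedom). At an unadjusted p of 0.05, 953 genes lay beyond the threshold, 497 of them higher and 456 lower, and the smallest adjusted p was 0.346. The smallest p values were those of Snord57, Trim69, Snord2, Rpl10 and Ciart. Trim69, a ubiquitin ligase gene, stood at 3.53 and 3.58 CPM with IgG in batches 181212 and 190306 and at 1.47, 0.767 and 0.621 CPM with anti-IL-2 in batches 181212, 181201 and 190306 (log2 fold change -2.07 ± 0.39, adjusted p = 0.346). The limma voom test also called none, and DESeq2 called 18 genes, 8 higher and 10 lower, among them Mcm2 (0.46 ± 0.12, adjusted p = 0.0348) and the serine metabolism gene Shmt2 higher and the T cell homing regulator Klf2, the immediate early gene Egr1 (-1.32 ± 0.32, adjusted p = 0.0348), Nfkb2 and Fam65b lower. These 6 genes were picked from the 18 after their values were seen.

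The treatment difference in gut CD8 cells was next tested against that in spleen CD8 cells. The gut side was the difference within batch 181212, and the spleen side was fitted over batches 181201 and 181212 with batch as a term. It differed for 160 genes (1.25%), 83 with a more positive difference in gut (0.646%) and 77 with a more negative one (0.6%). The count was 328 with the CD8 gut anti-IL-2 library of batch 181201 kept, and 272 without the filter on low counts. S phase genes accounted for 10 of the 83: among 32 tested, 10 differed toward gut and none toward spleen, with Uhrf1 at 1.01 ± 0.14, Rrm2 at 0.95 ± 0.12 and Cdc6 at 0.91 ± 0.16. Their summed level in spleen CD8 cells was 4053 and 4034 CPM with IgG and 3414 and 3425 CPM with anti-IL-2 in batches 181201 and 181212, so it was lower with anti-IL-2 in spleen and higher in gut. In batch 190306 it was 3861 CPM with IgG and 4704 CPM with anti-IL-2 in spleen, higher with anti-IL-2 as in gut. Among other genes, Cd244, an activation receptor of killer cells, stood at 50.9, 84.7 and 86.1 CPM in the gut libraries IgG 181212, anti-IL-2 181212 and anti-IL-2 181201, against 52.6 and 34.1 CPM with IgG and 19.8 and 19.8 CPM with anti-IL-2 in spleen (difference of differences 1.84 ± 0.25, adjusted p = 0.0107). Rgs10, a brake on G protein signalling, fell in gut (-0.59 ± 0.11) while it stood at 13.3 and 11.7 CPM with IgG and 30.8 and 33.7 CPM with anti-IL-2 in spleen (-1.96 ± 0.14, adjusted p = 0.000145). The gut value of this comparison rests on the IgG library of batch 181212 alone.

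Against gut CD4 cells, the treatment difference in gut CD8 cells differed for 5 genes (0.0389%), 3 more positive (0.0234%) and 2 more negative (0.0156%) in CD8 cells, while 865 lay at an unadjusted p under 0.05. The difference of Klrb1c was more negative in CD8 than in CD4 cells (-2.43 ± 0.26, adjusted p = 0.00859): in gut CD4 cells it stood at 31.7 CPM with IgG and 13.7 CPM with anti-IL-2 in batch 181212, and at 25.4 CPM with anti-IL-2 in batch 181201, and both anti-IL-2 libraries enter the CD4 side. Mx1, an interferon-induced antiviral gene, stood at 27.5 and 30.7 CPM in CD8 cells and at 9.09 and 25.8 CPM in CD4 cells (-1.29 ± 0.18, adjusted p = 0.039). Swap70, a signalling adaptor, stood at 59.4 and 57.2 CPM in CD8 cells and at 124 and 65.5 CPM in CD4 cells (0.89 ± 0.13, adjusted p = 0.039). The remaining 2, B4galnt2 and Deptor, were named after their values were seen. The count was 10 with the CD8 gut anti-IL-2 library of batch 181201 kept, 18 with DESeq2 and 38 without the filter on low counts. No S phase gene differed between the cell types in this test.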

How the data were processed

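RNA of sorted donor T cells was sequenced as 22 libraries of 8 populations. The deposited table holds whole-number read counts per gene name, and per the submitters' processing notes TopHat2 and HTSeq 0.9.1 were used on the mouse build mm10; the strand setting is not given in the sources used here, so overlapping and antisense genes are uncertain. Of 24091 gene names, 23509 (97.6%) matched GENCODE M21 symbols. Total counts were 14628806 to 24518362 per library.

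Genes with low counts were filtered by filterByExpr, leaving 12841. Counts were scaled by TMM and tested with edgeR 4.0.16 (R 4.3.3; quasi-likelihood, robust, Benjamini-Hochberg, threshold 0.05), with the treatment difference taken within batch and the differences between batches and populations as contrasts; the fit with batch as a term pooled all batches. Alternatives used DESeq2 1.42.0, limma 3.58.1 voom, other scaling and filters, and other sets of libraries. The fit was tested on simulated data.

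The libraries, gene lists and tests were chosen with earlier results of these data known. Genes named were the largest changes per batch, the genes shared by both batches, the smallest p values of the other contrasts, up to 4 members per list with the smallest p in batch 181212, and a set of IL-2, effector and tissue genes. Of the genes shared by both batches the rule names 10, and the other 11, with further list members such as Ahr, Aurkb, Pcna, Cdt1, Irf7, Irf9 and Tnfrsf4, were named after their values were seen. A few results are not reported here.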

Additional observations from a re-analysis of the deposited data

Results flagged for a closer look

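The treatment difference in CD8 gut cells differed between batches for 1537 genes, and among those with at least 10 reads in each of the 4 libraries the named ones were Socs2 (difference of log2 fold changes, batch 190306 minus batch 181212, 7.79), Klrb1c (5.89), St6gal1 (4.74), Fam19a3 (3.28) and Il2ra (3.06), and Ttn (-5.49), Vwa5a (-3.38) and Ifi27l2a (-2.96). St6gal1, a sialyltransferase gene, stood at 54.5, 12.6 and 6.02 CPM in the IgG 181212, anti-IL-2 181212 and anti-IL-2 181201 libraries, and at 10.1 CPM with IgG and 62.2 CPM with anti-IL-2 in batch 190306.

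The difference between gut and spleen CD8 cells passed for 160 genes. The largest by the naming rule were Tmem176b (2.26), Cd244 (1.84), Klre1 (1.52) and Ankle1 (1.48) toward gut, and Rgs10 (-1.96), Tmem230 (-1.82), Wfikkn2 (-1.59) and Id3 (-1.50) toward spleen. Between gut CD8 and gut CD4 cells 5 genes passed, of which Swap70 (0.89), Mx1 (-1.29) and Klrb1c (-2.43) met the level required for naming. Each was singled out because a test of the difference itself passed.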

How the results depend on the processing

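With DESeq2, 405 genes were called in batch 181212, 295 in batch 190306, 657 for the difference between batches, 18 between gut CD8 and gut CD4 cells and 18 over all batches, and 7 in the same and 111 in opposite directions in both batches. Without the filter on low counts, 272 genes differed between gut and spleen and 38 between CD8 and CD4 cells. With the anti-IL-2 library of batch 181201 kept, these counts were 328 and 10. Fits of the 8 libraries of a single batch, with 2 residual degrees of freedom, called 14 genes in batch 181212 and 75 in batch 190306. Among single genes, Il2rg in batch 181212 turned to 0.038 with the batch 181201 library kept, and Stat5a in batch 190306 to 0.018 without the filter and 0.020 in the single-batch fit. None of these passed. Leaving out each library that sets the spread gave 892 to 1141 genes in batch 181212, and leaving out each CD8 gut library gave 0 over all batches. The replicate numbers do not pair these libraries, and the fit with batch as the block and the fit with no replicate block both called 0 genes. The within-batch values rest on 1 library per group, with an IgG library in only 2 batches.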
